A study of Mus musculus with 10 samples.

Results

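The innate sensors of nucleic acids inside endosomes and the proteins that bring them there were followed in immortalized mouse macrophages that lack or carry Toll-like receptor 9 (TLR9). The set was chosen by name, with earlier results of these data known, and holds 8 of the 19938 genes measured. They are the 5 receptors Tlr3, Tlr7, Tlr8, Tlr9 and Tlr13, and the 3 trafficking factors Unc93b1, Hsp90b1 and Cnpy3. Each of the 8 was read by 1 probe set that is annotated to that gene alone, so no choice between probe sets was needed. The study asked which genes differ in expression when TLR9KO and wild-type B6 macrophages meet β-1,3 glucan beads, particles of a fungal cell wall sugar. There were 4 groups of Affymetrix arrays: the TLR9KO line with beads (2 arrays), the TLR9KO line unstimulated (2 arrays), the wild-type B6 line with beads (3 arrays) and the wild-type line unstimulated (3 arrays). Beads were given at 20 per cell for 4 h, and 100 ng of total RNA entered the labelling of every array. All cells were immortalized, each genotype is given as a single line, and the labels do not say how Tlr9 was disrupted. A difference between the lines therefore cannot be told apart from an effect of the genotype. In RNA of whole cultures, fewer cells that express a gene and less of its RNA per cell cannot be told apart either.

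Endosomal Toll-like receptors detect nucleic acids that reach the endosome after a cell takes up microbes or debris. They are made in the endoplasmic reticulum, fold there with the help of dedicated chaperones, travel to endosomes with the membrane protein UNC93B1, and are cut by endolysosomal proteases before they signal. TLR3 binds double-stranded RNA and signals through the adaptor TRIF. TLR7, TLR9 and the mouse receptor TLR13, which recognises bacterial ribosomal RNA, signal through the adaptor MyD88. Human TLR8 senses single-stranded RNA, and its mouse counterpart is less understood. Macrophages are among the main cells that carry these receptors.

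The plainest pattern was between the lines. The knockout line had more Unc93b1 and less Hsp90b1 than the wild-type line, both with and without beads. Without beads Tlr8 and Tlr13 also passed as higher in the knockout line. None of these genes passed in every fit that left out a single array. With beads the difference of Tlr13 was 0.82 and missed the threshold (limma, adjusted p = 0.0617), while that of Tlr8 was -0.17. Tlr9 itself and the chaperone partner Cnpy3 did not pass the test in any comparison. No member passed for a change with beads in either line, and Tlr8 in the knockout line had the largest measured difference among the 8.

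Promoter windows are shown for 3 of the genes that differed between the lines: Hsp90b1, because it was the only member that passed as lower and its window holds a rare motif, and Tlr8 and Tlr13, the receptors that passed as higher. They are RefSeq windows on build GRCm38.p6, running from 250 bases before to 50 bases after the start of the gene, and 6 of the 8 members had one. They are given 5′ to 3′ on the strand of the gene. The Hsp90b1 window is chr10:86705395-86705694 (minus strand), that of Tlr8 is chrX:167264280-167264579 (minus strand) and that of Tlr13 is chrX:106143025-106143324 (plus strand). Capitals mark the matches of the motifs described after the sequences.
Hsp90b1: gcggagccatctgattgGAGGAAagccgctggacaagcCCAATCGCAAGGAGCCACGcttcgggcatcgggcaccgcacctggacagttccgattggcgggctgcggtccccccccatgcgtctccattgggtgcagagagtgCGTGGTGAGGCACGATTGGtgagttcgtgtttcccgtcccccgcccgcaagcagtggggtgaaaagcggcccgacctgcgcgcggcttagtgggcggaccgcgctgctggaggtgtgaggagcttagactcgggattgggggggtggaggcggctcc
Tlr8: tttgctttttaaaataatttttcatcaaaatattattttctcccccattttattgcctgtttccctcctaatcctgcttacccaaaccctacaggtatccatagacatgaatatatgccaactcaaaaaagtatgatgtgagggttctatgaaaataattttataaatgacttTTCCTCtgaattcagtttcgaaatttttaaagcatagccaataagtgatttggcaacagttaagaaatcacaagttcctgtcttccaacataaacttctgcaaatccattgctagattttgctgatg
Tlr13: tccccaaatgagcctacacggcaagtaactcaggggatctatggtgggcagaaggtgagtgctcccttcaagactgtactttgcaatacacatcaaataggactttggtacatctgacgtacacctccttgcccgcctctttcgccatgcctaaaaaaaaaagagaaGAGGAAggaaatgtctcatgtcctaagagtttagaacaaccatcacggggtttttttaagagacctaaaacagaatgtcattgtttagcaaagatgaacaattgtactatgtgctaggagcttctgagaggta
Each window was searched on both strands for 3 motifs that do not overlap one another in these windows. The endoplasmic reticulum stress element, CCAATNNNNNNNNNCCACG, is the sequence through which the unfolded protein response acts on chaperone genes, and only 0.119% of all 32851 windows held it (39 windows). Hsp90b1 held it at 2 places, starting 212 bases before the start on the strand of the gene and 107 bases before it on the opposite strand. The core of the site for PU.1, a transcription factor of macrophages, is GAGGAA and was found in 28.3% of all windows. It lay 233 bases before the start of Hsp90b1, 83 bases before that of Tlr13 and, on the opposite strand, 77 bases before that of Tlr8. The windows of Tlr9 (2 matches) and Cnpy3 (1 match) held it too. The core of the interferon-stimulated response element, GAAANNGAAA, was in 3.44% of all windows and in none of the 6. The windows also differed in base composition, with 66.7% G and C for Hsp90b1, 32.3% for Tlr8 and 43.3% for Tlr13, beside a median of 52.7% over all windows. These are matches of letters, not measured binding sites.

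Values are log2 signals, on which a difference of 1 is a 2-fold change, and levels of different probe sets are not set against each other. Wild-type bead array 3 stood apart from the rest. Its mean Pearson correlation with its group mates across genes was 0.973. The other wild-type bead arrays, whose means include array 3, reached 0.985 and 0.986, and the arrays of the other groups 0.994 to 0.997. The SD over genes of array 3 was 1.75, against 1.86 to 2.0 for the other 9 arrays. Many results that rest on this array are given with and without it, and others only with it. No detection calls were used, but none of the 8 genes was below the 25th percentile of all genes on any array. Tlr8 was below the array's median on 3 arrays. Of the 10 macrophage markers examined, all were measured and 8 were above the array's median on all 10 arrays. Among markers of other cells, Ccr9 (plasmacytoid dendritic cells), Xcr1, Clec9a and Cd209a (conventional dendritic cells), Cd79a and Ms4a1 (B cells), Cd3d and Cd3g (T cells), Ly6g (granulocytes) and Lum (fibroblasts) were below the 25th percentile on every array. On every array 2 markers of plasmacytoid dendritic cells, 1 of T cells and 3 of fibroblasts were above the median. Between the lines 1 marker of these other cells passed, the T cell gene Cd5 (-0.96 ± 0.13 without beads and -1.01 ± 0.13 with beads). With wild-type bead array 3 left out, Tcf4 of the plasmacytoid dendritic cell list passed too, as higher in the unstimulated knockout line. The mean log2 signal of the 10 macrophage markers ran from 10.01 to 10.17 in knockout bead arrays, 10.17 to 10.34 in unstimulated knockout arrays, 9.59 to 10.08 in wild-type bead arrays and 9.84 to 9.90 in unstimulated wild-type arrays. Between the unstimulated lines 4 of these markers passed as higher in the knockout line and 1, Mertk, as lower (-1.50 ± 0.21), and with beads 3 and 1. Over all genes 8.25% passed without beads and 7.22% with beads. With wild-type bead array 3 left out the marker counts were 6 and 1 without beads and 4 and 2 with beads. Of all genes 18.4% and 20.9% then passed. The part of this marker shift in the results that follow was not tested.

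**Figure D1:**
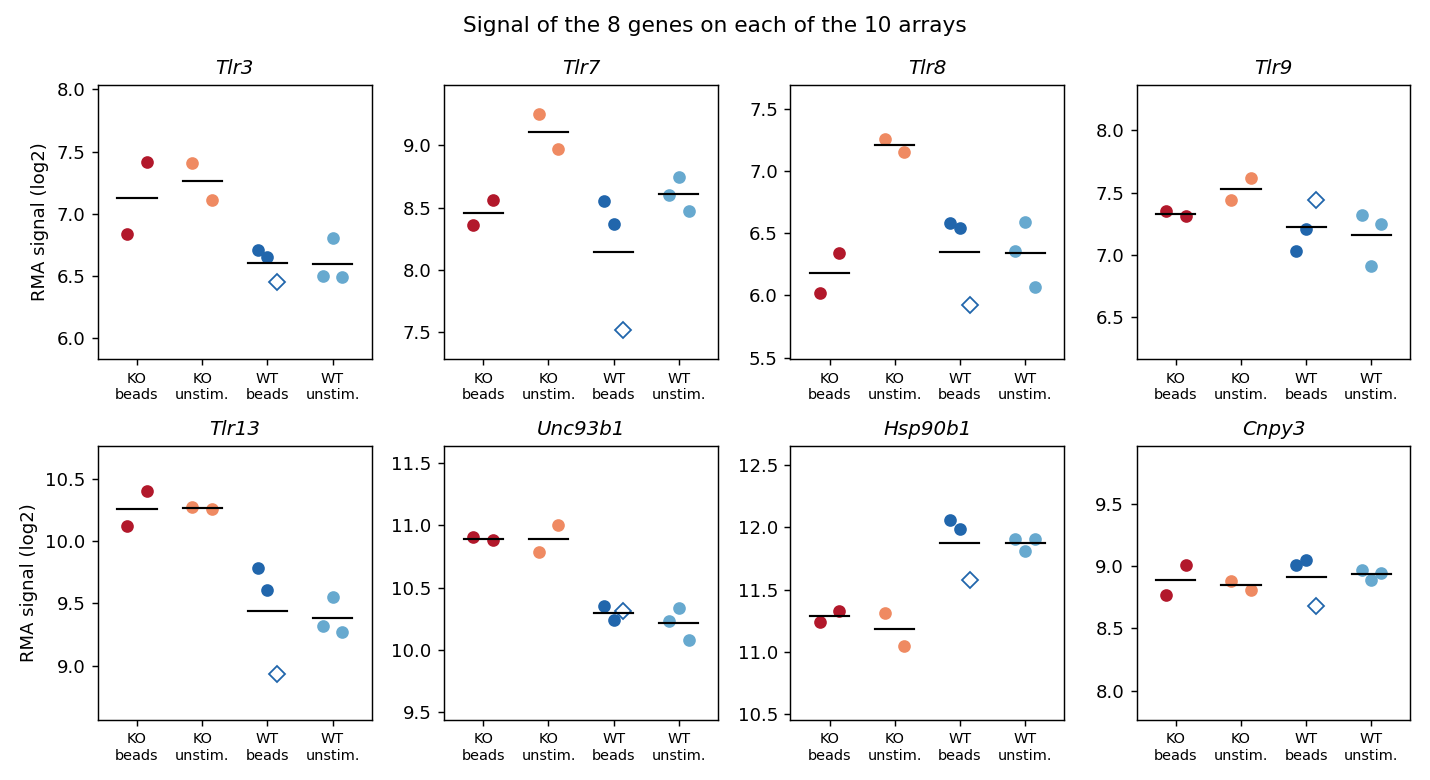
RMA log2 signal (y axis) of each of the 8 genes on each of the 10 arrays, by group (x axis: knockout or wild-type line, with beads or unstimulated). Dots are arrays, the open diamond is wild-type bead array 3, and bars are group means. All panels span the same range of log2 units. The knockout dots lie above all wild-type dots for Unc93b1, Tlr13 and Tlr3 and below them for Hsp90b1, and unstimulated knockout arrays stand above all other groups for Tlr8.

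Unc93b1 (probe set 10460237), the membrane protein that escorts endosomal Toll-like receptors out of the endoplasmic reticulum, was the member with the smallest standard error. Its log2 signal was 10.91 and 10.88 in knockout cells with beads and 10.79 and 11.00 in unstimulated knockout cells, against 10.35, 10.24 and 10.31 in wild-type cells with beads and 10.23, 10.34 and 10.08 in unstimulated wild-type cells. All 4 knockout arrays were above all 6 wild-type arrays, and within each line the bead and unstimulated arrays overlapped. Without beads the knockout line was 1.6-fold higher (0.68 ± 0.11, SE; limma, adjusted p = 0.00448). With beads it was 1.51-fold higher (0.59 ± 0.11, limma, adjusted p = 0.00924). The difference with beads was 0.60 when wild-type bead array 3 was left out (adjusted p = 0.00318). The call without beads was lost when unstimulated knockout array 2 was left out (0.57, adjusted p = 0.0651), and the call with beads when knockout bead array 1 (0.58, adjusted p = 0.0864) or 2 (0.61, adjusted p = 0.0825) was.

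Hsp90b1 (probe set 10371482) encodes gp96, the chaperone of the endoplasmic reticulum on which most Toll-like receptors depend to fold. It had signals of 11.24 and 11.33 in knockout cells with beads and 11.31 and 11.05 in unstimulated knockout cells. Wild-type cells had 12.06, 11.99 and 11.58 with beads and 11.91, 11.81 and 11.91 unstimulated. Every knockout array was below every wild-type array, and the lowest wild-type value was that of bead array 3. The knockout line was 1.62-fold lower without beads (-0.70 ± 0.15, adjusted p = 0.0186) and 1.5-fold lower with beads (-0.59 ± 0.15, adjusted p = 0.0442). These values were -0.70 (adjusted p = 0.000426) and -0.74 (adjusted p = 0.000577) when wild-type bead array 3 was left out. Leaving out other single arrays ended both calls: without beads, unstimulated knockout array 1 or 2 or unstimulated wild-type array 1 or 3 (adjusted p 0.0595 to 0.195), and with beads, any array but wild-type bead array 3 (adjusted p 0.0594 to 0.281).

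Cnpy3 (probe set 10451458), the co-chaperone that works with gp96 on Toll-like receptors, read 8.77 and 9.01 in knockout cells with beads, 8.88 and 8.81 in unstimulated knockout cells, 9.01, 9.05 and 8.68 in wild-type cells with beads and 8.97, 8.89 and 8.94 in unstimulated wild-type cells. All neighbouring groups in the order of means overlapped, although the unstimulated knockout arrays lay just below the unstimulated wild-type arrays. The knockout minus wild-type difference was -0.09 ± 0.13 without beads (95% interval -0.38 to 0.20, adjusted p = 0.981) and -0.025 ± 0.13 with beads (95% interval -0.32 to 0.27). The 3 trafficking factors thus gave 1 higher, 1 lower and 1 that did not pass.

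Tlr13 (probe set 10601385), the receptor for bacterial ribosomal RNA, had signals of 10.12 and 10.40 in knockout cells with beads and 10.27 and 10.26 in unstimulated knockout cells. In wild-type cells it had 9.78, 9.61 and 8.93 with beads and 9.32, 9.55 and 9.27 unstimulated. As for Unc93b1, all knockout arrays were above all wild-type arrays and beads did not part the arrays within a line. The unstimulated knockout line was 1.85-fold higher (0.89 ± 0.22, adjusted p = 0.0406). With beads the difference was 0.82 ± 0.22 and missed the threshold (adjusted p = 0.0617). It was smaller but passed when wild-type bead array 3 was left out (0.57 ± 0.12, adjusted p = 0.00851), and larger and past the threshold when wild-type bead array 1 was (0.99 ± 0.21, adjusted p = 0.0319). The call without beads was lost when any array other than wild-type bead array 1 or 3 was left out (adjusted p 0.0546 to 0.216).

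Tlr3 (probe set 10578493), the receptor for double-stranded RNA, gave 6.84 and 7.42 in knockout cells with beads and 7.41 and 7.11 in unstimulated knockout cells, against 6.71, 6.65 and 6.45 in wild-type cells with beads and 6.50, 6.81 and 6.49 in unstimulated wild-type cells. Its knockout arrays also lay above all wild-type arrays, with a wider spread than those of Tlr13. The difference was 0.66 ± 0.19 without beads (95% interval 0.24 to 1.08) and missed the threshold (adjusted p = 0.0635). It passed when wild-type bead array 3 was left out (0.66 ± 0.17, adjusted p = 0.0181), as it did when knockout bead array 1 or 2 was (adjusted p = 0.0358 for each). With beads it was 0.53 ± 0.19 (adjusted p = 0.159), and it was 0.82 when knockout bead array 1 was left out and 0.24 when knockout bead array 2 was. Neither of these passed.

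Mouse Tlr8 (probe set 10607868) is a relative of the human receptor for single-stranded RNA. Its signals were 6.02 and 6.34 in knockout cells with beads, 7.26 and 7.15 in unstimulated knockout cells, 6.58, 6.54 and 5.92 in wild-type cells with beads and 6.36, 6.59 and 6.07 in unstimulated wild-type cells. The 2 unstimulated knockout arrays were above the other 8 arrays, and the remaining groups overlapped one another. Without beads the knockout line was 1.82-fold higher than the wild-type line (0.86 ± 0.22, adjusted p = 0.0428). With beads the difference was -0.17 ± 0.22 (95% interval -0.67 to 0.32, adjusted p = 1), and it was -0.39 ± 0.16 (adjusted p = 0.114) when wild-type bead array 3 was left out and -0.014 when knockout bead array 1 was. The call without beads had an adjusted p of 0.00186 with wild-type bead array 3 left out and was lost when any array other than wild-type bead array 1 or 3 was left out (adjusted p 0.0508 to 0.259).

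Tlr7 (probe set 10607870) senses single-stranded RNA, and its gene is the immediate neighbour of Tlr8 on chromosome X. Its signals were 8.36 and 8.56 in knockout cells with beads, 9.25 and 8.97 in unstimulated knockout cells, 8.55, 8.37 and 7.52 in wild-type cells with beads and 8.60, 8.75 and 8.47 in unstimulated wild-type cells. Again the unstimulated knockout arrays were the highest, and the lowest value was that of wild-type bead array 3. The knockout minus wild-type difference was 0.50 ± 0.26 without beads (adjusted p = 0.41) and 0.32 ± 0.26 with beads (adjusted p = 0.818). Leaving out wild-type bead array 3 gave a smaller standard error, with which the difference without beads passed (0.50 ± 0.12, adjusted p = 0.0138), and a difference with beads of 0.0031 ± 0.13. The difference with beads was 0.52 when wild-type bead array 1 was left out.

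Tlr9 (probe set 10588479), the receptor for DNA rich in unmethylated CpG and the gene that the knockout label names, read 7.35 and 7.31 in knockout cells with beads, 7.44 and 7.62 in unstimulated knockout cells, 7.03, 7.21 and 7.44 in wild-type cells with beads and 7.32, 6.91 and 7.25 in unstimulated wild-type cells. The order of group means was unstimulated knockout, knockout with beads, wild type with beads and unstimulated wild type, and all neighbours overlapped except the knockout groups. The signal was not lower in the arrays labelled knockout. The difference was 0.37 ± 0.15 without beads (95% interval 0.02 to 0.71, adjusted p = 0.244) and 0.10 ± 0.15 with beads (95% interval -0.25 to 0.45). Leaving out unstimulated wild-type array 2 gave 0.24 without beads. With beads, leaving out wild-type bead array 3 gave 0.21 and leaving out wild-type bead array 1 gave 0.0001. Since neither the labels nor the files place these probes relative to the disruption, the values do not check the genotype labels.

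**Figure D2:**
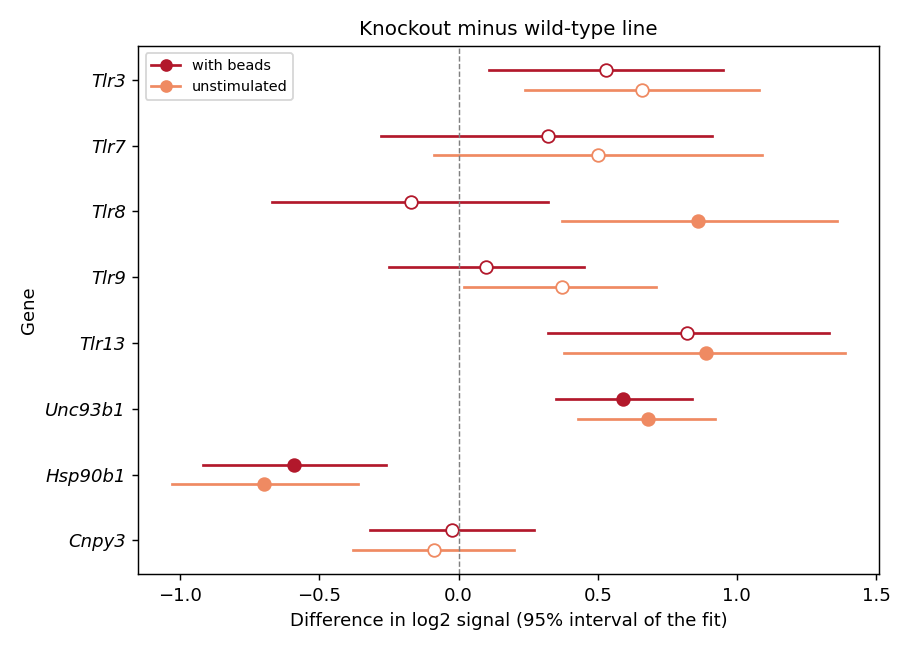
Knockout minus wild-type difference in log2 signal (x axis) for each of the 8 genes (y axis), with beads and unstimulated. Points are limma estimates, lines are 95% intervals, and filled points passed at an adjusted p under 0.05. Unc93b1 (0.59 and 0.68) and Hsp90b1 (-0.59 and -0.70) passed in both settings, and Tlr8 (0.86) and Tlr13 (0.89) passed without beads.

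Counted over the set, 3 of the 8 members passed as higher and 1 as lower in the unstimulated knockout line, where 8.25% of all 19938 genes passed (3.79% higher and 4.46% lower). The members' median difference was 0.58, beside 0.02 over all genes. With beads 1 passed as higher and 1 as lower, where 7.22% of all genes passed (3.82% higher and 3.4% lower), and the medians were 0.21 and -0.01. Without beads the arrays of the lines did not overlap for any of the 8 genes, 6 of them higher and 2 lower in the knockout line, beside 38.8% of all genes in either direction. With beads that held for 3 higher and 1 lower, beside 23.6% of all genes. Leaving out wild-type bead array 3 gave 6 members past the threshold without beads, where 18.4% of all genes passed, and 3 with beads, where 20.9% did. Centring each array on its median ended the calls of Tlr8, Tlr13 and Hsp90b1 without beads (adjusted p = 0.278, 0.272 and 0.151). It also ended those of Unc93b1 and Hsp90b1 with beads (adjusted p = 0.0782 and 0.288). Without beads, quantile normalization ended the call of Tlr8 (0.89, limma, adjusted p = 0.0872) and kept those of Tlr13, Unc93b1 and Hsp90b1. The comparisons with and without beads use different arrays but share the estimate of the spread. Leaving out an array outside a comparison therefore left its differences unchanged and moved only their standard errors and p-values. Tlr8 without beads, for example, stayed at 0.86 when wild-type bead array 2 was left out.

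The bead comparisons were made within each line. In the knockout line, Tlr8 was 2.04-fold lower with beads (means 6.18 ± 0.23 and 7.20 ± 0.08, SD, n = 2 each), a difference of -1.03 ± 0.24. Its 95% interval was -1.57 to -0.48, with an unadjusted limma p of 0.00199, and it did not pass over all genes (adjusted p = 0.875, or 0.0589 without wild-type bead array 3). Tlr7 was lower in the same direction (8.46 ± 0.14 with beads and 9.11 ± 0.20 unstimulated), a difference of -0.64 ± 0.29 with an interval of -1.29 to 0.01 (limma, adjusted p = 1). The bead arrays of Tlr7, Tlr8 and Tlr9 were all below the unstimulated knockout arrays, 3 of 8 members, beside 24.4% of all genes with 2 arrays on each side. The other 5 overlapped, and their differences ran from -0.13 for Tlr3 to 0.11 for Hsp90b1. Over all genes, limma passed 0.0% for beads in the knockout line, with 359 genes (1.8%) and 1 member at an unadjusted p under 0.05.

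In the wild-type line all 8 members overlapped between bead and unstimulated arrays, beside 3.53% of all genes that did not. Tlr7 had the widest difference, -0.46 ± 0.24, and it was -0.15 ± 0.12 without wild-type bead array 3. The other 7 lay between -0.02 for Cnpy3 and 0.085 for Unc93b1, with 95% intervals no wider than that of Tlr13, -0.39 to 0.51. With wild-type bead array 3 left out, Tlr13 was 0.32 ± 0.11 (limma, adjusted p = 0.389) and Tlr8 was 0.22 ± 0.14 (adjusted p = 0.534), and the remaining 5 lay between -0.041 for Tlr9 and 0.15 for Hsp90b1. Tlr13 then had an unadjusted limma p of 0.0191. In the fit of all arrays 0.0% of all genes passed, with 167 genes (0.838%) and 0 members at an unadjusted p under 0.05. The bead response of the knockout line minus that of the wild-type line was -1.04 ± 0.31 for Tlr8 (95% interval -1.74 to -0.34) and did not pass in limma (adjusted p = 1). Leaving out wild-type bead array 3 gave -1.25 ± 0.21 (adjusted p = 0.322). For the other 7 the difference between the responses ran from -0.27 for Tlr9 to 0.11 for Hsp90b1. Without that array Tlr7 was -0.50 ± 0.18 (adjusted p = 0.928) and Tlr13 was -0.32 ± 0.17 (adjusted p = 0.928), against -0.19 and -0.065 with it. In the fit of all arrays 0.0% of all genes passed, with 172 genes (0.863%) and 1 member at an unadjusted p under 0.05.

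**Figure D3:**
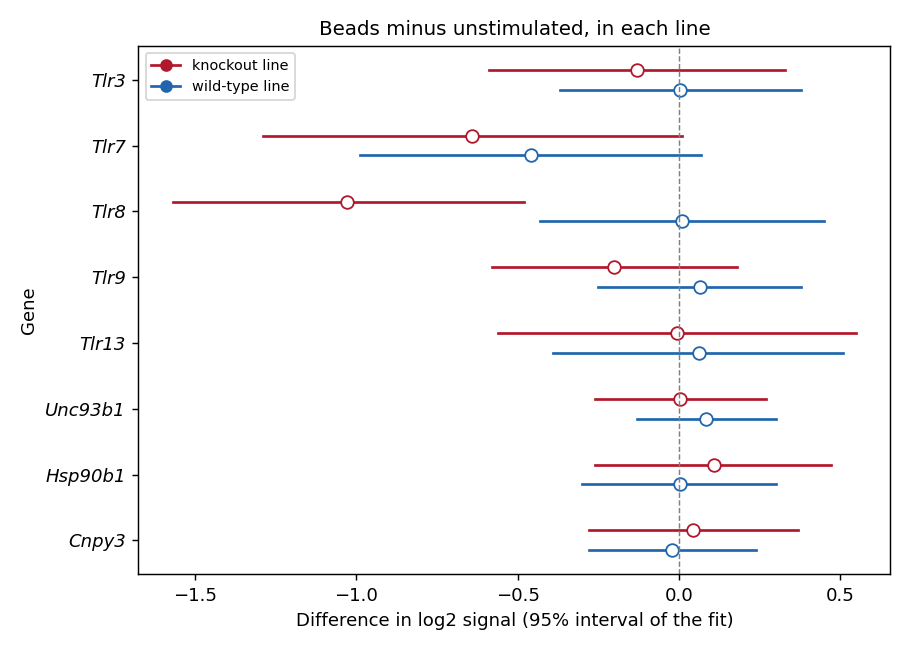
Beads minus unstimulated difference in log2 signal (x axis) for each of the 8 genes (y axis), in the knockout line and in the wild-type line. Points are limma estimates and lines are 95% intervals. All points are open because none passed at an adjusted p under 0.05. The interval of Tlr8 in the knockout line (-1.57 to -0.48) is the only one that leaves out 0.

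Other genes of the pathway were read from 5 lists. Their counts stand beside 8.25% of all genes that passed without beads and 7.22% with beads. With wild-type bead array 3 left out these shares were 18.4% and 20.9%. Among the remaining Toll-like receptors, 5 of 7 were measured and Tlr2, a receptor for bacterial lipoproteins at the cell surface, passed, 2.74-fold higher in the unstimulated knockout line (1.46 ± 0.12, adjusted p = 8.13e-05) and 2.51-fold higher with beads. The other 4, Tlr1, Tlr4, Tlr6 and Tlr12, did not pass in either comparison. The list's median was 0.02 without beads, equal to that of all genes, and -0.02 with beads. With wild-type bead array 3 left out, Tlr6 passed too with beads, as lower.

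Genes that move or cut endosomal receptors split in direction. Of 18 measured, 2 passed as higher and 2 as lower without beads, and 2 and 1 with beads, with medians of 0.20 and 0.08. The cathepsins, proteases of the endolysosome, held most of the calls. Ctsk averaged 7.56 in unstimulated knockout cells and 12.15 in unstimulated wild-type cells (-4.60 ± 0.15, adjusted p = 3.25e-07). Ctss, which can cut TLR receptors in endolysosomes, was 3.2-fold higher without beads and 3.34-fold higher with beads. Ctsl was 1.61-fold and 1.94-fold higher. Lrrc59, a membrane protein of the endoplasmic reticulum that takes part in receptor trafficking, passed as lower without beads (-0.44 ± 0.08, adjusted p = 0.0115). Leaving out wild-type bead array 3 gave 4 higher and 5 lower in each comparison, where 18.4% and 20.9% of all genes passed.

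Of 10 measured genes that supply or clear nucleic acids in endolysosomes, 1 passed as higher and 1 as lower in each comparison. Cd14, a co-receptor that binds nucleic acids and lipopolysaccharide, was 5.52-fold higher without beads (2.46 ± 0.18, adjusted p = 3.8e-05) and 5.34-fold higher with beads. Slc29a3, a lysosomal nucleoside transporter, was 2.67-fold and 2.35-fold lower. The medians were -0.00 without beads and 0.00 with beads. Without wild-type bead array 3 the counts were 3 higher and 2 lower without beads, and 3 higher and 1 lower with beads. Of all genes 18.4% and 20.9% then passed.

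Below the receptors, 4 of 19 measured signalling genes passed as higher and 0 as lower in each comparison, with medians of 0.23 and 0.16. Irf7, the factor that drives interferon genes after TLR7 and TLR9 signal, averaged 11.42 in unstimulated knockout cells and 6.30 in unstimulated wild-type cells (5.12 ± 0.13). Irf5, which drives inflammatory cytokines, was 2.52-fold higher without beads and 2.39-fold higher with beads. Irak3, an inhibitor of the MyD88 pathway, was 2.32-fold and 2.2-fold higher. Irf8 (0.47 ± 0.10, adjusted p = 0.02) passed without beads and Ikbkg (0.38 ± 0.09, adjusted p = 0.0358), the regulatory subunit of the IκB kinase, with beads. The adaptor genes Myd88 and Ticam1, which encodes TRIF, did not pass, with differences of 0.16 ± 0.17 and 0.39 ± 0.14 without beads. Without wild-type bead array 3 the counts were 6 higher and 1 lower without beads, and 5 and 1 with beads. Of all genes 18.4% and 20.9% then passed.

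**Figure D4:**
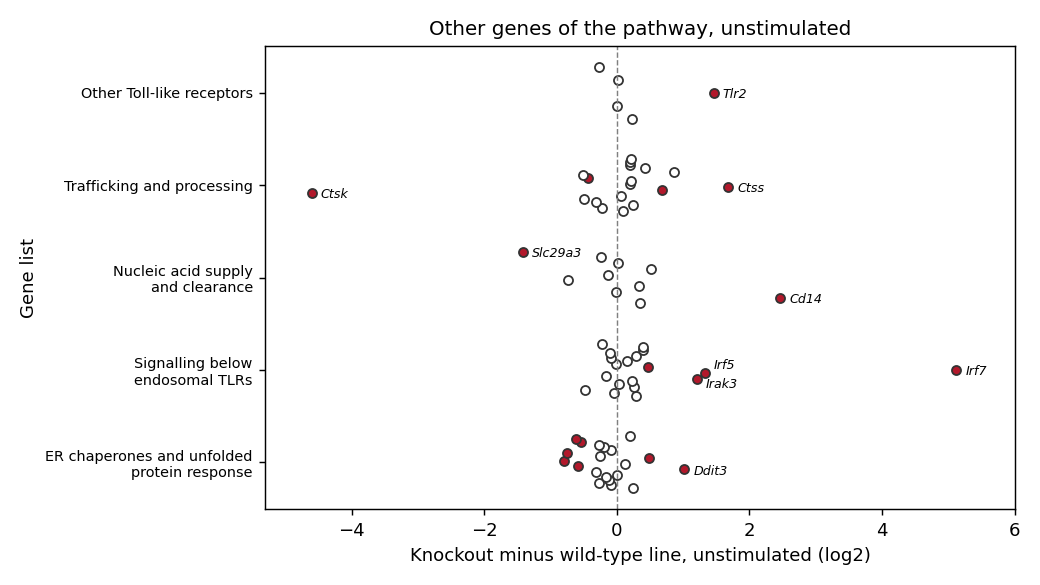
Knockout minus wild-type difference in log2 signal of the unstimulated arrays (x axis) for every measured gene of the 5 pathway lists (y axis). Each dot is a gene, spread vertically only to keep dots apart, filled where it passed at an adjusted p under 0.05 and named where it passed and differed by more than 1. The chaperone list holds 2 genes that passed as higher and 5 that passed as lower, and the signalling list 4 that passed as higher.

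The chaperones and stress genes of the endoplasmic reticulum, to which Hsp90b1 belongs by function, were read beside it. All 20 listed genes were measured. Without beads 5 passed as lower and 2 as higher, and with beads 3 and 2, with a median of -0.18 in each comparison. Dnajc3 (-0.80 ± 0.15), the chaperone Hyou1 (-0.75 ± 0.12) and Sdf2l1 (-0.62 ± 0.10, adjusted p = 0.00435) were lower without beads. With beads Sdf2l1 (-0.68 ± 0.10), Pdia6 (-0.51 ± 0.10) and Hyou1 (-0.49, adjusted p = 0.0444) were. Pdia6 (-0.54 ± 0.10) and Dnajb11 (-0.59 ± 0.14) completed the 5 lower genes without beads. Against that direction, the stress-induced transcription factor Ddit3 was 2.03-fold higher without beads and 2.08-fold higher with beads, and Herpud1 passed as higher in both (0.49 ± 0.12 without beads and 0.54 ± 0.12 with beads). Hspa5, the abundant chaperone BiP, differed by -0.25 ± 0.09 without beads and did not pass (adjusted p = 0.174). Without wild-type bead array 3 the counts were 2 higher and 8 lower without beads, and 3 and 8 with beads. Of all genes 18.4% and 20.9% then passed. Of the 17 genes of this list with a promoter window, 6 held the stress element that Hsp90b1 holds at 2 places: Hspa5, Calr, Canx, Pdia6, Dnajc3 and Creld2. Without beads Pdia6 and Dnajc3 passed as lower, and Hspa5, Calr, Canx and Creld2 did not pass. Hyou1, Sdf2l1 and Dnajb11, which passed as lower, are not among the 6, and neither are Ddit3 and Herpud1, which passed as higher. Any of these genes may be among those without a window, so their absence does not show that they lack the element. A link between the element and the signals was not tested. In all, no gene of the 5 lists passed in the bead comparisons of either line.

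Over the 10 arrays, the genes whose signals moved most like those of a member are given as a description. These correlations share the same 10 arrays and carry no test. The signals of Unc93b1, Tlr13, Tlr3 and Hsp90b1 parted the lines, while those of Tlr7 and Tlr8 were highest in the unstimulated knockout arrays. For Unc93b1 they were Lpcat2 (Pearson r = 0.986), Rapgef5 (0.985) and Rnf114 (0.984). For Tlr13 they were Il6st (0.992), Zbtb7a (0.992) and Anxa1 (0.991), and for Hsp90b1 they were Hspd1 (0.995), Cbx5 (0.994) and Ints7 (0.993). Tlr8 was most like Sesn1 (0.959), Tlr1 (0.937) and Mpp1 (0.898). Among the members, Tlr3 and Tlr13 correlated at 0.91 over 10 arrays and 0.91 over the 9 without wild-type bead array 3. Tlr13 and Unc93b1 did so at 0.88 and 0.95, and Tlr3 and Unc93b1 at 0.82 and 0.82. Values were 0.83 and 0.89 for Tlr7 and Tlr8, and -0.92 and -0.95 for Unc93b1 and Hsp90b1. Other pairs are not given here.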

How the data were processed

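The authors deposited log2 signal values per probe set, made with RMA per the submitters' processing notes. Its version, the probes' genome build and whether all 10 arrays were normalized together are not stated there. The arrays were not centred on a common median (5.98 to 6.32 over genes), so the centring is unknown.

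From these values, the 28853 probe sets were named through the platform annotation: 21789 had 1 gene symbol, 1621 had several and 5443 had none. Symbols were updated by Entrez ID for 21698, and of several probe sets for a gene the one of highest mean was taken. Means of the 4 groups were fitted by lmFit and eBayes (limma 3.58.1, R 4.3.3; two-sided), giving 6 residual degrees of freedom plus 3.23 prior ones. The threshold was 0.05 for p adjusted over all 19938 genes by the Benjamini-Hochberg method. Differences carry the standard error of the fit. The procedure was tested on simulated data with independent noise, equal in spread on all arrays for a given gene. No outlying array was simulated, so that case was not covered. The number of arrays limits the precision. Separate cultures are not named in the labels, so p-values measure only the spread between arrays. The titles carry array numbers of undescribed meaning, lower for every knockout array than for every wild-type array, which cannot be told apart from the line.

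The members, the gene lists and the cell type markers were chosen with earlier results of these data known. All 8 members are covered in every comparison, some of them only within a stated range. From each list, up to 4 genes with the largest difference among those that passed are named, and for each member that passed, the 3 genes with the highest Pearson correlation, leaving out predicted genes and small RNAs. Other genes (Tlr1, Tlr4, Tlr6, Tlr12, Myd88, Ticam1, Hspa5, Dnajb11, Hyou1 with beads, Pdia6 and Herpud1 without beads, the genes with the stress element and the markers) were named after their values were seen. Promoter sequences are from RefSeq.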

Additional observations from a re-analysis of the deposited data

How the results depend on the processing

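No paired analysis was possible because replicate numbers are missing from the labels. The alternatives were leaving out each of the 10 arrays in turn, fitting only the groups compared, 3 other scalings, a trended or robust eBayes, array weights, a filter on dim genes, the mean of all probe sets and testing every probe set. A left-out array of a 2-array group leaves a lone array that is assumed to vary like the other groups.

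Between the unstimulated lines 4 members passed, and leaving out an array gave 0 to 6. With beads 2 passed, and leaving out an array gave 0 to 3. Centring on the median gave 1 member without beads and 0 with beads. Fitting only the groups compared gave 6 members without beads and 0 with beads. The members it added without beads were Tlr3 and Tlr7 (limma, adjusted p = 0.0119 and 0.025), and no bead array entered that fit. The directions of Tlr3, Tlr7, Tlr8, Tlr9, Tlr13, Unc93b1 and Hsp90b1 between the lines were kept under all 20 alternatives, or all that applied. With beads this says little for Tlr9, Tlr7 and Tlr8, whose smallest differences were 0.0001, 0.0031 and -0.014. Tlr8 had opposite directions with and without beads. Array weights gave 4 members with beads, 2 for beads in the wild-type line (Tlr8 0.39 and Tlr13 0.32) and 1 for the difference of the responses (Tlr8 -1.42), but the weights ran from 0.0701 for wild-type bead array 3 to 12.1 for wild-type bead array 2, their estimation did not converge, and 9174 genes passed for beads in the wild-type line. Counts over all genes ran from 681 to 3668 without beads and 597 to 4171 with beads when an array was left out, and from 772 to 4451 and 480 to 6083 otherwise, beside 1645 and 1439. For beads in the knockout line they reached 17 genes when an array was left out and 16 otherwise, and for the difference of the responses 1 and 9, beside 0 reported.

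Values near 0 that did not pass changed sign. Between the lines with beads, Cnpy3 was 0.0056 when centred on the 75th percentile and -0.15 to 0.096 when an array was left out. For beads in the knockout line, Unc93b1 was -0.00058 centred on the median, -0.033 centred on the 75th percentile and -0.022 after quantile normalization. With an array left out, the ranges there were -0.42 to 0.16 for Tlr3, -0.14 to 0.13 for Tlr13, -0.10 to 0.11 for Unc93b1, -0.018 to 0.24 for Hsp90b1 and -0.077 to 0.17 for Cnpy3. For beads in the wild-type line, centring on the median gave -0.02 for Tlr3, -0.013 for Tlr8 and -0.021 for Hsp90b1. Quantile normalization gave -0.047 for Tlr3, -0.061 for Tlr8, -0.018 for Hsp90b1 and 0.016 for Cnpy3, and array weights -0.039 for Tlr9 and 0.10 for Cnpy3. Ranges with an array left out were -0.052 to 0.11 for Tlr3, -0.13 to 0.22 for Tlr8, -0.058 to 0.17 for Tlr9, -0.11 to 0.32 for Tlr13, -0.087 to 0.15 for Hsp90b1 and -0.089 to 0.099 for Cnpy3. For the difference of the responses, array weights gave -0.06 for Cnpy3, and the ranges were -0.42 to 0.15 for Tlr3, -0.50 to 0.018 for Tlr7, -0.32 to 0.11 for Tlr13, -0.19 to 0.025 for Unc93b1, -0.04 to 0.23 for Hsp90b1 and -0.058 to 0.19 for Cnpy3. The cause of these changes was not tested.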
